A study of Mus musculus with 2 samples.

Results

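The genes examined were *Pax6*, *Eomes*, *Tbr1*, *Insm1*, *Btg2*, *Gadd45g* and *Mfap4*, 7 of the 24411 genes listed. They were taken by symbol from RNA sequencing counts of laser-captured pieces of mouse brain at embryonic day 16.5, as the *Pax6*, *Eomes* and *Tbr1* cascade of transcription factors with 4 genes of intermediate progenitors. The contrast between the areas, the subventricular zone (SVZ) against the cortex, was known when they were chosen, so their differences between the areas are given as a description with no test. Laser capture microdissection (LCM) cuts chosen areas from a stained section under the microscope, and the pieces here were cut from cryosections of fresh frozen brain after haematoxylin and eosin staining, on a slide adjacent to those used for light-directed barcoding. The data comprised 2 libraries, 1 from the SVZ and 1 from the cortex, and the labels name no genetic change or treatment for either. The sources used here do not give strain, sex or the number of embryos behind a library. Levels are in CPM, the reads of a gene per 1000000 reads that were assigned to genes in that library.

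In the developing cerebral cortex, radial glia beside the ventricle carry PAX6, a paired-domain and homeodomain factor. They give rise to intermediate progenitors, which move into the SVZ, switch on the T-box factor EOMES (also called TBR2) and divide to make neurons. Postmitotic glutamatergic neurons, above all the early-born neurons of the deep layers, then express TBR1, a T-box factor closely related to EOMES. INSM1 is a zinc-finger repressor that promotes the formation of intermediate progenitors, BTG2 (also called TIS21) is an antiproliferative factor of progenitors that are about to make neurons, GADD45G is a growth arrest and stress response protein, and MFAP4 is a glycoprotein of extracellular microfibrils.

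*Eomes* and *Tbr1* are paralogues, so it was asked first whether their reads could be mistaken for each other. In GENCODE M21 on GRCm38 each has 6 coding exons, and coding exons 2 to 5 have the same lengths in both genes, 498 bases in all, of which 367 (73.7%) were identical. Over the whole coding sequences, 2121 and 2043 bases, the longest identical run was 14 bases. The most alike stretches of 75 bases, the length of a sequencing read, are shown because they are where a read would be hardest to place. They had 65 identical and 10 different bases. The *Eomes* stretch spans chr9:118479473-118480467 and the *Tbr1* stretch chr2:61805326-61805974, both on the plus strand, and in both all but the last base lie in coding exon 1 and the last base in coding exon 2. Capitals mark the bases that differ.
Eomes: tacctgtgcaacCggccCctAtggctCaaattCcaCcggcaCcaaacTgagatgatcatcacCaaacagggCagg
Tbr1: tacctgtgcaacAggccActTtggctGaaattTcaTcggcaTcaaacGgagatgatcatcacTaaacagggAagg

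The 250 bases before the transcription start were read for the members found in the RefSeq promoter table (GRCm38.p6), which matched *Pax6*, *Eomes*, *Tbr1*, *Btg2* and *Gadd45g*. Windows of *Pax6*, *Eomes* and *Gadd45g* are shown, the first pair because these factors differed most between the areas and the last because no other window held more than 1 E-box, the letters CANNTG to which proneural factors bind. Both strands were searched, and the match is the same on either strand. Capitals mark the E-boxes.
Pax6 (chr2:105668646-105668895, plus strand): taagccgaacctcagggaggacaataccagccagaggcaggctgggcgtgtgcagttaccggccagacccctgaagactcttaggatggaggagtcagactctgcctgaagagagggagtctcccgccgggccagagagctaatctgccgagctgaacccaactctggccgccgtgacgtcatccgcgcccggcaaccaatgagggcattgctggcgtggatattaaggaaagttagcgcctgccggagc
Eomes (chr9:118477939-118478188, plus strand): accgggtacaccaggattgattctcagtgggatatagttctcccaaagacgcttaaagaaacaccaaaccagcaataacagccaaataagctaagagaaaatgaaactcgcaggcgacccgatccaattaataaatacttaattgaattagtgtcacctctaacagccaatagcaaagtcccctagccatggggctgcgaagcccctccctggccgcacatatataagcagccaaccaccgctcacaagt
Gadd45g (chr13:51846425-51846674, plus strand): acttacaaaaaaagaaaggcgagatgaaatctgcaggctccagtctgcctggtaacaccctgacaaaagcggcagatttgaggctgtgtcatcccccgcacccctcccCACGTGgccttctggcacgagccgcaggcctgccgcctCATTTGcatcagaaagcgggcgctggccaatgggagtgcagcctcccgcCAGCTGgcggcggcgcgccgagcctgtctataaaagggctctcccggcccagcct

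The *Gadd45g* window held 3 E-boxes, 142, 104 and 55 bases before the start, and the windows of *Pax6* and *Eomes* shown above held 0. The window of *Tbr1* and a second window of *Pax6*, which lie wholly within exons of these genes and are not shown, held 1 each. E-boxes stood in 66.2% of all 32851 promoter windows of this length. The letters CAGATG (an E-box too, so any match overlaps one), GGTGTG (a T-box core) and TTCACGC (part of the site of the PAX6 paired domain) were searched on both strands, and 0 matches were found in any window of these 5 genes. They stood in 14.4%, 16.3% and 1.03% of all windows. G and C made up 60.8% of the *Pax6* window, 46.4% of the *Eomes* window, 62.0% of the *Gadd45g* window and 73.2% of the *Btg2* window, against a median of 52.4% over all windows. These matches describe letters in the windows only.

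Reads assigned to genes numbered 51435667 in the SVZ sample and 22050693 in the cortex sample, and a single read stood for 0.0194 and 0.0453 CPM in turn. With 1 library per area there is no replicate check of any difference, and intervals are exact 95% intervals of the read counts (Clopper-Pearson for ratios, Poisson for levels). Copies of a molecule made by PCR are not independent and no molecular identifiers are given, so these intervals hold counting error alone. In bulk pieces of tissue, fewer cells of a type and less RNA per cell cannot be told apart. Of the 7 genes, all averaged 10 CPM or more over the libraries. In all, 6 of them were at least 4-fold higher in the SVZ sample, a size passed by 6.75% of the 9027 genes with that mean, and 1 was at least 4-fold higher in the cortex sample, a size passed by 4.70%. Since the contrast itself was known when the genes were chosen, no result is drawn from these counts.

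Of the cascade factors, *Pax6* and *Eomes* were higher in the SVZ and *Tbr1* in the cortex. *Pax6* (chr2:105668900-105697364, plus strand, protein coding) had 9245 reads or 180 CPM in SVZ and 15 reads or 0.680 CPM in the cortex sample. *Eomes* (chr9:118478212-118486132, plus strand, protein coding) had 11659 reads or 227 CPM in the SVZ sample and 2 reads or 0.0907 CPM in the cortex sample. Both progenitor factors were thus abundant in the SVZ piece and close to the detection limit in the cortex piece, where the counting interval of *Eomes* ran from 0.0110 to 0.328 CPM. The log2 ratio of SVZ to cortex CPM was 8.05 for *Pax6* (interval 7.32 to 8.88) and 11.29 for *Eomes* (9.43 to 14.33).

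*Tbr1* (chr2:61802930-61814114, plus strand, protein coding) had 2433 reads or 47.3 CPM in the SVZ sample and 4827 reads or 219 CPM in the cortex sample. It was the 1 gene of the 7 with the higher level in the cortex. The log2 ratio was -2.21 (-2.28 to -2.14), a CPM 4.63-fold higher in the cortex sample. Unlike *Eomes* in the cortex, *Tbr1* was well above the detection limit in the area where it was lower. There the counting interval ran from 45.4 to 49.2 CPM.

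**Figure D1:**
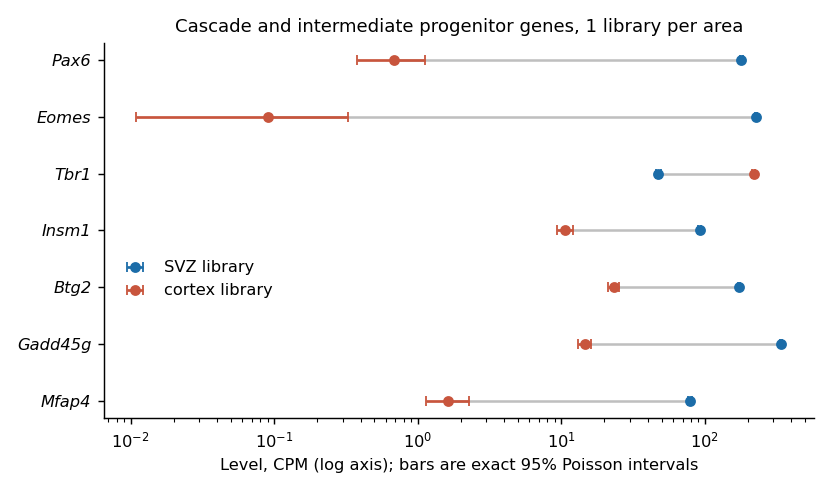
Level of each gene in CPM on a log axis in the SVZ sample (blue) and the cortex sample (red), with exact 95% Poisson intervals as bars. The SVZ point lies to the right for 6 genes and the cortex point lies to the right for *Tbr1*, and the widest bar is that of *Eomes* in the cortex, which rests on 2 reads.

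The 4 genes of intermediate progenitors were all higher in the SVZ sample, but in the unstranded counts kept more reads in the cortex sample than *Eomes* or *Pax6* did. *Gadd45g* (chr13:51846678-51848468, plus strand) had 17531 reads or 341 CPM in the SVZ sample and 321 reads or 14.6 CPM in the cortex sample, a 23.4-fold difference with a log2 ratio of 4.55 (4.39 to 4.71). *Btg2* (chr1:134075170-134079120, minus strand) had 8888 reads or 173 CPM and 514 reads or 23.3 CPM, in SVZ and cortex in turn, a 7.41-fold difference with a log2 ratio of 2.89 (2.76 to 3.02). These antiproliferative genes were therefore plainly read in the cortex too. *Insm1* (chr2:146221921-146225020, plus strand, a single exon) had 4740 reads or 92.2 CPM in SVZ and 234 reads or 10.6 CPM in cortex, for a log2 ratio of 3.12 (2.93 to 3.31). *Mfap4* (chr11:61485431-61488900, plus strand) had 4054 reads or 78.8 CPM and 36 reads or 1.63 CPM, and a log2 ratio of 5.59 (5.12 to 6.11). By ratio the order was *Eomes*, *Pax6*, *Mfap4*, *Gadd45g*, *Insm1*, *Btg2* and *Tbr1*. The intervals of *Insm1* and *Btg2* overlapped, and those of the other neighbours in this order did not. This holds for the unstranded counts. With both strand columns summed, *Pax6* had 57 cortex reads against 36 of *Mfap4*, and log2 ratios were 6.18 and 5.59 in turn.

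Reads per gene also depend on transcript length, so levels were set against each other as CPM per kb of the longest protein-coding transcript in GENCODE M21. In the SVZ sample *Gadd45g* had the highest level of the 7 genes, 318 CPM per kb. *Eomes* followed with 63.7 and *Btg2* with 63.0 CPM per kb, levels whose counting intervals overlapped. Next came *Mfap4* with 45.8, *Pax6* with 40.6, *Insm1* with 29.7 and *Tbr1* with 11.9 CPM per kb. This order depends on the transcript chosen. With the median length of each gene's transcripts *Eomes* had 79.0 and *Pax6* 64.7 CPM per kb, and *Pax6* then stood above *Btg2* (63.0) and *Mfap4* (59.2). In the cortex sample the order was headed by *Tbr1* with 55.0 CPM per kb, followed by *Gadd45g* with 13.6, *Btg2* with 8.50 and *Insm1* with 3.42. *Mfap4* (0.948), *Pax6* (0.154) and *Eomes* (0.0255 CPM per kb) were last there, and the intervals of *Pax6* and *Eomes* overlapped. *Tbr1* thus moved from the lowest of the 7 levels in the SVZ to the highest in the cortex, and *Eomes* from near the top to the lowest.

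Taken as shares of their summed CPM per kb, *Pax6*, *Eomes* and *Tbr1* made up 35.0%, 54.8% and 10.2% in the SVZ sample. In the cortex sample the shares were 0.278%, 0.0461% and 99.7%. *Eomes* was 1.57 times *Pax6* and 5.35 times *Tbr1* per kb in the SVZ sample. In the cortex sample *Tbr1* was 358 times *Pax6* per kb, a ratio that rests on 15 *Pax6* reads. With both strand columns summed it was 94.3, with a *Pax6* share of 1.05%. That sum counts reads shared with a neighbouring gene for both genes. The order *Eomes*, *Pax6*, *Tbr1* in the SVZ was the same with the median transcript length of each gene, with which the shares were 49.0%, 40.1% and 10.9%.

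**Figure D2:**
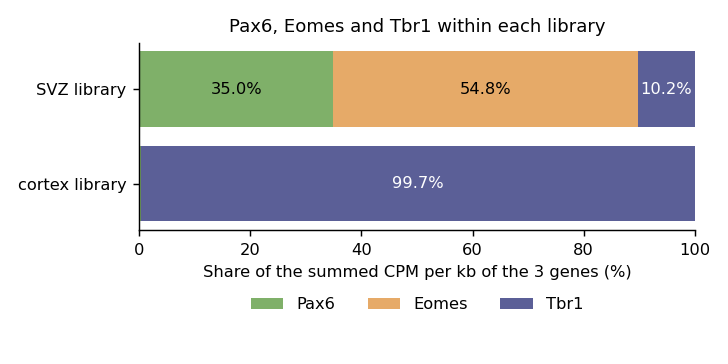
Share (%) of *Pax6*, *Eomes* and *Tbr1* in their summed CPM per kb, with 1 bar per library. *Eomes* takes 54.8% of the SVZ bar and *Tbr1* takes 99.7% of the cortex bar.

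The deposited counts of each strand serve as a second count of the same reads. The first of the strand columns held between 49.2% and 51.1% of the stranded reads of each of the 7 genes in the SVZ sample, so that library kept no strand information. In the cortex sample it held between 48.3% and 50.2% for *Insm1*, *Btg2*, *Gadd45g* and *Tbr1*, and 40.4% of 57 *Pax6* reads, 55.6% of 36 *Mfap4* reads and 0 of 2 *Eomes* reads. For *Eomes*, *Tbr1*, *Insm1*, *Btg2* and *Gadd45g* the sum of both strand columns equalled the unstranded count in both libraries, and for *Mfap4* it was 2 reads higher in the SVZ sample. *Pax6* gained 404 reads in the SVZ sample and 42 in the cortex sample, and *Elp4*, the neighbouring gene on the minus strand, gained the same numbers. Without strand information, the sum counts each such read once for *Pax6* and once for *Elp4*. It is therefore an upper limit for the reads of *Pax6*. Counted that way, the log2 ratio of *Pax6* was 6.18, with 9649 reads in the SVZ sample and 57 in the cortex sample. The cortex count of *Pax6* thus lay between 15 and 57 reads, a span beyond counting error, and the direction was the same with either count. In GENCODE M21 *Pax6* and *Elp4* do not overlap, and the sources used here do not name the gene models behind the counts beyond the genome build. *Pax6os1*, an antisense transcript listed beside *Pax6*, had 469 reads in the SVZ sample and 0 in the cortex sample. In GENCODE M21 it shares 0 exonic bases with *Pax6*. *Eomes* shares 118 exonic bases with the antisense gene *Gm33460* and *Mfap4* shares 89 with *Mapk7* on the opposite strand, and reads from either gene of such a pair cannot be told apart there without strand.

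Other genes of the same lineage were then described from lists by role, keeping genes that averaged 1 CPM or more. Over all 12738 such genes the median log2 ratio was 0.11, and 10.2% were at least 4-fold higher in the SVZ sample and 7.01% in the cortex sample. By any size, 54.9% of them had the higher CPM in the SVZ sample. Of 4 listed targets of PAX6 outside the 7 genes, 3 were at least 4-fold higher in the SVZ sample, and the median was 6.35. *Fabp7*, a fatty acid binding protein of radial glia, had 4973 CPM in the SVZ sample and 39.0 CPM in the cortex sample. *Tfap2c*, an AP-2 factor of progenitors, had 68.4 and 0.590 CPM, and *Neurog2*, the proneural factor that acts upstream of *Eomes*, had 154 and 2.68 CPM. The 4th, the secreted Wnt modulator *Sfrp2*, had a log2 ratio of 0.15 (0.04 to 0.27), close to the median of all genes. A list of 15 apical progenitor genes, which overlaps these targets in *Fabp7* and *Tfap2c*, had 14 genes above the minimum, and 14 of these were at least 4-fold higher in the SVZ sample (median 4.07). The library labelled SVZ thus also held markers of the ventricular zone, such as *Hes5*, a Notch target (104 CPM against 1.59 CPM in the cortex sample), and *Prom1*, a protein of the apical membrane (93.0 against 13.5 CPM).

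Among 9 proneural and neuronal basic helix-loop-helix genes, 5 were at least 4-fold higher in the SVZ sample, 0 were at least 4-fold higher in the cortex sample, and the median was 2.85. The early members of this series were on the SVZ side. *Neurod4* (1192 reads in the SVZ sample), *Nhlh1* (519 reads) and *Neurog1* (135 reads) had 0 reads in the cortex sample, which allows up to 3 reads or 0.136 CPM there, and with 3 reads in place of 0 they were at least 170-fold, 74.2-fold and 19.3-fold higher in the SVZ sample. Their exact intervals, which also hold the error of the SVZ counts, begin lower, at log2 ratios of 7.11, 5.91 and 3.95. *Neurod1*, which is active in intermediate progenitors and new neurons, had 240 CPM in the SVZ sample and 33.2 CPM in the cortex sample, a log2 ratio of 2.85 (2.75 to 2.96). That is close to the ratio of *Btg2* and well below that of *Eomes*. The neuronal factors *Neurod2* and *Neurod6* had the higher level in the cortex sample, with log2 ratios of -0.69 and -0.81. *Neurod6* was nevertheless read at 1592 CPM in the SVZ sample.

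The list of other intermediate progenitor genes was divided. Of 9 genes above the minimum, 3 were at least 4-fold higher in the SVZ sample, 1 in the cortex sample, and 5 lay between, with a median of 1.50. The 3 were *Mfng*, a glycosyltransferase that modifies Notch (log2 ratio 5.00), *Sstr2*, a somatostatin receptor (4.11), and *Rhbdl3*, a rhomboid-like membrane protein (2.27). The gene on the other side was *Cdkn1c*, the cell cycle inhibitor p57, with 83.3 CPM in the SVZ sample and 374 CPM in the cortex sample. The Notch ligands differed, *Dll1* with a log2 ratio of 1.50 (1.26 to 1.75) and *Dll3* with -0.68 (-0.94 to -0.43). *Lzts1* had 6 reads in each library and fell under the minimum.

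On the neuronal side, 6 listed targets of TBR1 were all higher in the cortex sample, 5 of them at least 4-fold, with a median of -2.20. Neither this list nor that of PAX6 targets records whether the factor raises or lowers a target. Regulation by TBR1 or PAX6 was not tested. *Grin2b*, an NMDA receptor subunit, had 11.3 CPM in the SVZ sample and 190 CPM in the cortex sample, and *Reln*, the secreted signal of Cajal-Retzius cells, 2.47 and 27.7 CPM. *Auts2* was the exception in size, with a log2 ratio of -0.33 (-0.39 to -0.28). Of 8 deep-layer genes other than *Tbr1*, of which *Bcl11b*, *Fezf2* and *Sox5* are also in the target list, 7 were at least 4-fold higher in the cortex sample, and *Foxp2* had a log2 ratio of -1.22. The log2 ratios of *Sox5* (-2.15), *Fezf2* (-2.11) and *Bcl11b* (-2.26), which like *Tbr1* are set up early in deep-layer neurons, had counting intervals that overlapped that of *Tbr1*. *Ntsr1*, a receptor of layer 6 neurons, had 0 reads in the SVZ sample and 835 in the cortex sample. With 3 reads in place of 0 it was 649-fold higher in the cortex sample (log2 ratio -9.34). Its exact interval ends nearer to equal levels, at a log2 ratio of -9.04. *Crym* had 4 and 307 reads. Genes of the same layers thus ranged from undetected in the SVZ, as *Ntsr1*, to well read there, as *Tbr1* and *Sox5*.

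Of 12 listed partners, proteins that work together with the 7 gene products, 2 were at least 4-fold apart and the median log2 ratio was 0.14. Of all genes at this minimum, 17.2% were at least 4-fold apart, a share close to that of the partners. The 2 were *Cdk1*, the mitotic kinase that GADD45 proteins bind (247 CPM in the SVZ sample and 3.99 CPM in the cortex sample), and *Hdac1*, a deacetylase of the corepressor complex that INSM1 recruits (102 and 24.4 CPM). The log2 ratio of *Hdac1* was 2.07 and fell under 4-fold with TMM (1.98), DESeq2 (1.98) and upper-quartile (1.97) scaling. *Kdm1a* and *Rcor1* of the same complex had log2 ratios of 0.34 and -0.64. *Cnot7* and *Cnot8*, the deadenylases bound by BTG proteins, had -0.23 and 0.13. *Cask*, the scaffold protein that enters the nucleus with TBR1, had -1.32.

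**Figure D3:**
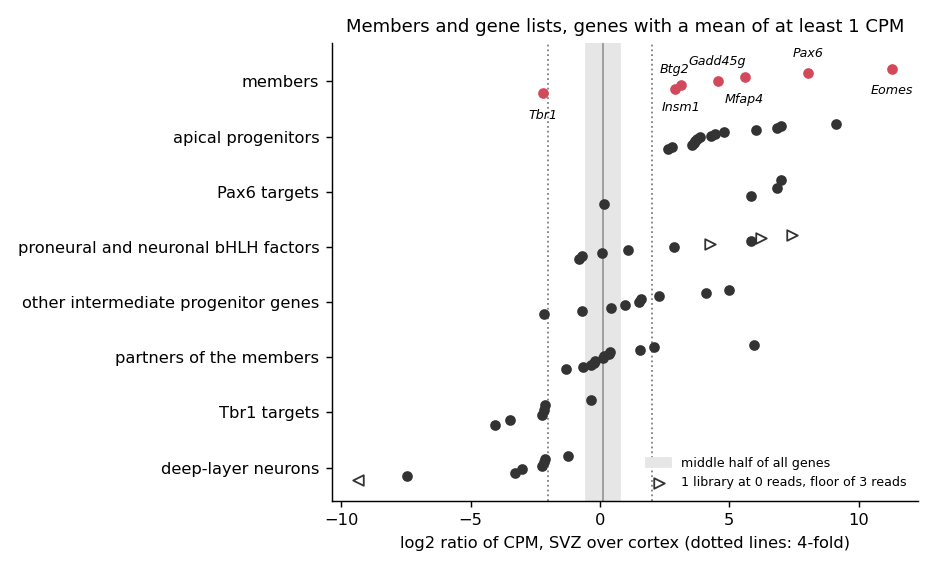
The log2 ratio of SVZ to cortex CPM for the 7 genes (red) and for list genes averaging 1 CPM or more (black), 1 point per gene with the 7 genes left out of the other lists. Open triangles are genes with 0 reads in 1 library set at a floor of 3 reads, dotted lines mark 4-fold and the grey band holds the middle 50% of all genes. The apical progenitor points all lie to the right of 4-fold, the points of the TBR1 target and deep-layer lists all lie left of 0, and the partner list sits around the grey band.

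Paralogues were compared to see whether whole families or single genes stood apart. Of the T-box family, 17 genes were listed, and only *Eomes*, *Tbr1* and *Mga* averaged 1 CPM or more. *Mga*, a large T-box and MAX-binding repressor, had 124 CPM in the SVZ sample and 169 CPM in the cortex sample (log2 ratio -0.45), and *Tbx21*, the 3rd gene of the *Tbr1* subfamily, had 0 reads in both. Of 9 *Pax* genes, the 8 other than *Pax6* had at most 2 reads in the SVZ sample and 0 in the cortex sample. Of the *Btg* and *Tob* family, *Btg1* was read at 289 CPM in the SVZ sample and 213 CPM in the cortex sample, a log2 ratio of 0.44, and the 4 relatives of *Btg2* above the minimum all lay within 4-fold. The relatives of *Gadd45g* were scarce. *Gadd45a* had 5.13 and 3.72 CPM and *Gadd45b* 0.447 and 1.68 CPM, in SVZ and cortex in turn, the latter with a log2 ratio of -1.91 (-2.73 to -1.12) opposite in sign to that of *Gadd45g*. *Insm2*, the relative of *Insm1*, had 14 reads in SVZ and 19 in cortex, and its log2 ratio was -1.66 (-2.77 to -0.59), also opposite in sign.

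**Figure D4:**
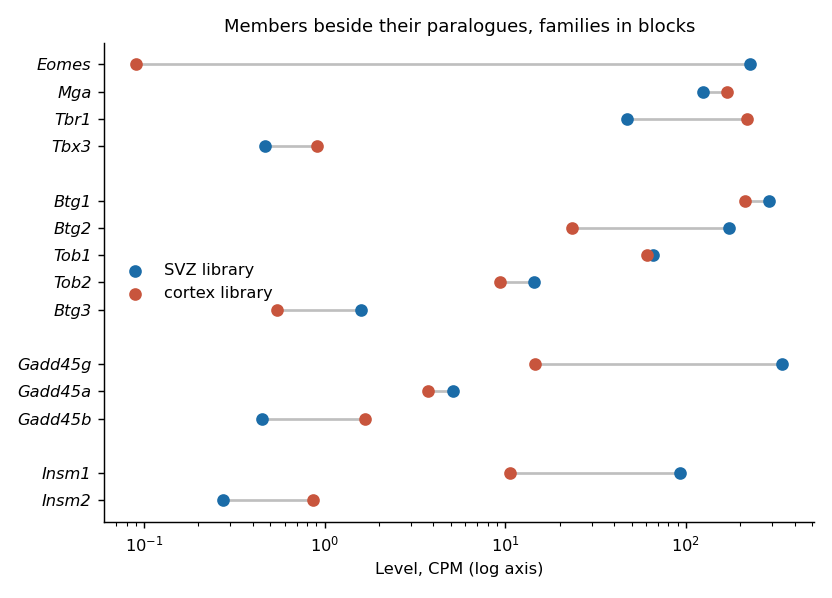
Level in CPM on a log axis of family genes with at least 30 reads in all and reads in both libraries, SVZ in blue and cortex in red, with 1 block per family. *Pax6* is left out because its relatives have at most 2 reads. *Eomes*, *Gadd45g*, *Insm1* and *Btg2* show the wide gaps with the SVZ on the right, and *Btg1*, *Tob1* and *Mga* show narrow ones.

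Genes with the most similar levels were sought by the distance between log2 CPM values over the 2 libraries, with counts under 3 set at 3. Nearest to *Pax6* were *Ttr*, the transthyretin gene of choroid plexus (distance 0.43), *Spc24*, a kinetochore subunit (0.58), and *Gli3*, a Hedgehog pathway factor of dorsal progenitors (0.78). Nearest to *Eomes* were *Nr2e1*, the stem cell factor also called Tlx (0.87), the membrane glycoprotein gene *Pdpn* (0.91) and the mitotic phosphatase gene *Cdc25c* (1.27). *Eomes* therefore had no gene as near as those of *Tbr1*, for which *Cadm2* (0.06), *Aplp1* (0.16) and *Sez6* (0.17), all genes of neurons, were nearest. *Insm1* was nearest to the imprinted gene *Peg12* (0.02), *Btg2* to *Nup93*, a subunit of the nuclear pore (0.10), *Gadd45g* to *Cdca8*, which encodes the mitotic protein borealin (0.39), and *Mfap4* to the kinase gene *Nim1k* (0.09). A distance over 2 libraries describes these levels alone.

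**Figure D5:**
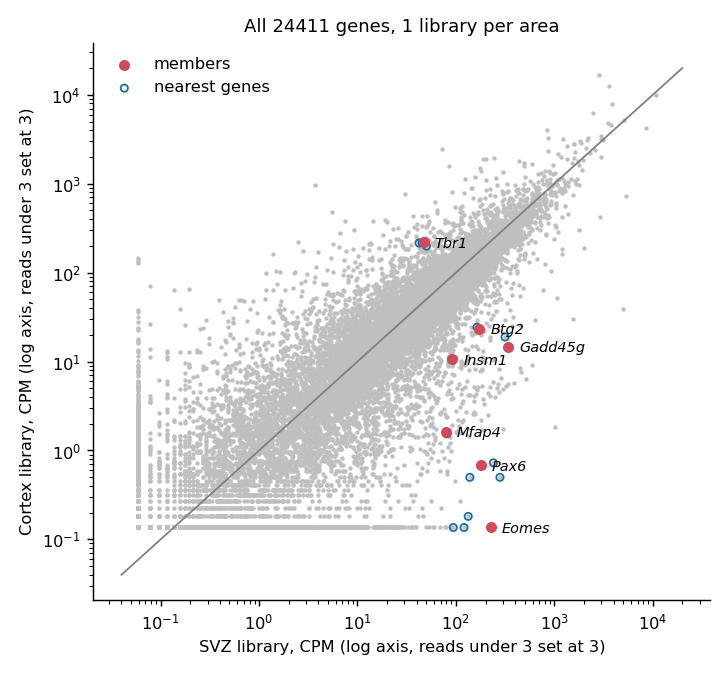
CPM in SVZ (horizontal) and CPM in cortex (vertical) on log axes for all 24411 genes (grey), with reads under 3 set at 3. The 7 genes are red and the genes nearest to them are blue circles. *Tbr1* lies above the line of equal CPM, and *Eomes*, with 2 reads in the cortex sample, lies at the floor at the lower edge.

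Several of the 7 genes are also used by other cells, and markers of those cells were read beside them. *Mfap4* is expressed by fibroblasts as well, and the 8 meningeal and fibroblast markers summed to 7.68 CPM in the SVZ sample and 9.43 CPM in the cortex sample. *Col1a1* had 0 reads in the SVZ sample and 2 in the cortex sample, and *Aldh1a2* had 0 in both. Of the 5 markers above the minimum, *Ogn* (159 and 1 reads) was at least 4-fold higher in SVZ and *Col3a1* (17 and 68 reads) at least 4-fold higher in cortex. *Btg2* is a target of p53, and of 6 other p53 target genes above the minimum 0 were at least 4-fold higher in the SVZ sample (median 0.18), with *Cdkn1a* at a log2 ratio of 0.47, and *Bbc3* (44 and 245 reads, log2 ratio -3.70) was at least 4-fold higher in the cortex sample. *Btg2* and *Gadd45g* also respond to acute stimuli. Of 10 immediate early and stress genes, 5 averaged 1 CPM or more, and among these *Jun* (3854 and 364 reads) passed 4-fold towards SVZ and *Junb* (6 and 60 reads) towards cortex. *Fos* had 39 and 0 reads. Choroid plexus markers summed to 247 CPM in the SVZ sample, of which *Ttr* made up 240, and to 0.907 CPM in the cortex sample, where 4 of 6 had 0 reads. The 10 microglial markers summed to 79.0 CPM in the SVZ sample and 9.39 CPM in the cortex sample, with 8 of 10 at least 4-fold higher in the SVZ. Of these, *Aif1*, *C1qa* and *Tyrobp* fell within 4-fold when 1 CPM was added to each level. Cajal-Retzius cells also express *Tbr1*. Their 7 markers summed to 4.10 CPM in SVZ and 32.0 CPM in cortex, of which *Reln* made up 2.47 and 27.7. *Reln* and *Calb2* were the 2 above the minimum, and *Lhx1* and *Lhx5* had 0 reads in both libraries. The 10 blood vessel markers all lay within 4-fold (156 and 119 CPM summed, in SVZ and cortex in turn). Of all genes averaging 1 CPM or more, 54.9% were higher in the SVZ sample. Of 11 interneuron markers 8 were higher in the SVZ sample, with a median of 0.48. They summed to 188 CPM in SVZ and 533 CPM in cortex, of which *Npy* made up 14.3 and 379, and without *Npy* to 173 and 154 CPM. All 12 general neuronal markers were higher in the cortex sample, 7 of them at least 4-fold. The 7 erythroid markers summed to 20.4 CPM in SVZ and 10.9 CPM in cortex, and 4 globin genes among them had 0 reads in both libraries. The part of these cells in the levels of the 7 genes was not tested.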

How the data were processed

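RNA sequencing counts of 2 LCM libraries, 1 from the SVZ and 1 from the cortex, were used. According to the study's methods, RNA was made into libraries with a low-input kit, adapters were removed with cutadapt 4.1, and read 1 was mapped to mm10 (Illumina iGenomes, equal to GRCm38) with STAR 2.7.9a. The counts deposited by the authors are whole reads per gene as counted by STAR, unstranded and for each strand, not normalized. The authors' merged table repeats these counts and adds CPM, fold changes and log10 ratios, which were not used. Reads in several places or in more than 1 gene are left out of these counts, and they made up 8.20% and 1.44% of the SVZ reads and 6.89% and 1.28% of the cortex reads. Unmapped reads and reads outside genes were kept out of totals.

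CPM was computed on the gene-assigned reads of the unstranded column. The measure was the log2 ratio of SVZ to cortex CPM with an exact 95% Clopper-Pearson interval. Where 1 library had 0 reads, 3 reads took their place. The ratio then depends on that floor and is less strict than the limit of the exact interval. No test was made, since each area has 1 library. Genes were called by size, at least 4-fold, with a mean of at least 10 CPM, or 1 CPM for lists. The members and lists were chosen with earlier results of these data known. Genes named are the 7 members, a part of the list genes at least 4-fold apart or against their list, and the nearest genes (3 for each of *Pax6*, *Eomes* and *Tbr1*, 1 for each other member). Not every list gene at least 4-fold apart is named. Other list genes named as examples were chosen after their values were seen. Positions and lengths came from GENCODE M21, matched by symbol, with a length for 23331 of 24411 genes, and promoter windows from RefSeq (GRCm38.p6). A comparison of coding exons was made in place of the planned comparison of proteins. As alternatives, libraries were scaled with DESeq2 1.42.0 or with TMM or upper quartiles in edgeR 4.0.16, or after removal of the 10 genes with most reads in each. Strand columns were summed, SVZ reads were thinned to equal depth, 1 CPM was added to each level, and other minimums, folds and transcript lengths were tried. R 4.3.3, Python 3.11.15, numpy 2.4.6, pandas 2.3.3, scipy 1.17.1 and matplotlib 3.10.9 were used. The ratio and its interval were tested on simulated counts that held counting error alone. That test says nothing of PCR copies or of differences between pieces of tissue.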

Additional observations from a re-analysis of the deposited data

How the results depend on the processing

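No paired analysis was possible because SVZ and cortex have 1 library each, which also leaves no replicate to leave out. *Pax6*, *Eomes*, *Insm1*, *Btg2*, *Gadd45g* and *Mfap4* were higher in the SVZ sample and *Tbr1* in the cortex sample with 4 other scalings, with summed strands, after thinning and with the pseudocount. Over the 4 scalings the log2 ratio of *Eomes* ran from 11.19 to 11.25, that of *Pax6* from 7.95 to 8.01 and that of *Tbr1* from -2.31 to -2.24, while the all-gene median shifted most under upper-quartile scaling, by -0.099. A pseudocount of 1 CPM, which draws ratios of low counts towards 0, gave 7.71 for *Eomes*, 6.75 for *Pax6* and 4.92 for *Mfap4*. It took *Neurog1* (1.86), *Ogn* (1.97), *Junb* (-1.74) and *Col3a1* (-1.62) within 4-fold. Also taken within 4-fold were *Aif1* (1.98), *Tyrobp* (1.91) and *C1qa* (1.35) of microglia, *Folr1* (1.90) of choroid plexus and *Erbb4* (1.49) of interneurons. TMM, DESeq2 and upper-quartile scaling took *Hdac1*, *C1qa* (1.93 to 1.94) and *Erbb4* (1.91 to 1.92) within 4-fold and *Gadd45b* just past it (-2.01 with upper-quartile scaling). With totals that left out the 10 most counted genes of either library, *C1qa* (1.9995) and *Erbb4* (1.98) also fell within 4-fold. The stranded sum, in which reads shared with *Elp4* count for both genes, gave 6.18 for *Pax6*. The number of members at least 4-fold higher in the SVZ sample fell to 2 at a minimum mean of 100 CPM, which leaves fewer genes, and the number at least 10-fold higher in the cortex sample was 0. The shares of *Pax6*, *Eomes* and *Tbr1* in their summed CPM per kb in the SVZ sample became 40.1%, 49.0% and 10.9% with median transcript lengths, and *Pax6* and *Eomes* took 35.9% and 54.0% in the stranded sum. In the cortex sample the share of *Tbr1* among the 3 was 99.66% with median lengths and 98.9% in the stranded sum, where *Pax6* took 1.05%. Depth limits *Eomes* and *Pax6* in the cortex sample, with 2 and 15 reads.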
